A study of Mus musculus with 39 samples.

Results

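The gene set described here holds 38 mouse genes of lipid supply, chosen by symbol from a table of 16144 genes: 18 of sterol synthesis, 8 of fatty acid synthesis, 7 regulators and 5 of sterol efflux and handling. All 38 were in the table and 37 had enough reads to be tested. The exception was Idi1, the isomerase of isopentenyl diphosphate, with 0 reads in the control and donor libraries and 13 reads over the 18 acceptor libraries.

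RNA 3′ ends were counted in primary microglia, the resident macrophages of the brain, shaken off the astrocyte layer of mixed cultures from newborn C57BL/6 mice. Donors stood in a 24-well plate and were given 1 µM alpha-synuclein, a neuronal protein found in the inclusions of Parkinson's disease, tagged with the dye Atto-488, for 14 h. Acceptors stood in a T25 flask and were stained with a violet cell tracer for 15 min. The 2 populations were then kept together without touching for 15, 30, 60, 150 or 300 min, and both were also taken at 0 min beside a control, which gives 13 groups of 3 libraries. The label of every donor and acceptor group also holds the letters TW, which it does not define, and no label gives the vessel or plating density of the control. Alpha-synuclein, vessel, plating density and dye differ together between donors and acceptors and cannot be told apart in that comparison.

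Cells make cholesterol from acetyl-CoA through mevalonate, squalene and lanosterol, and fatty acids from acetyl-CoA through malonyl-CoA. When membrane sterol is low, the escort protein SCAP carries the SREBP transcription factors from the endoplasmic reticulum to the Golgi, where they are cut and released to switch on both pathways, and when sterol is plentiful the INSIG proteins hold SCAP back. Oxysterols that build up under sterol load activate the liver X receptors (LXR), which raise export pumps such as ABCA1 and ABCG1 and the SREBP-1 gene. In microglia these circuits handle the lipid of engulfed myelin and debris.

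Levels are in CPM, read counts relative to library totals scaled by edgeR's TMM method, and a difference is called where the adjusted p of edgeR's quasi-likelihood test over 13034 genes is under 0.05. Each library held 8649169 to 15910662 reads. In bulk RNA, fewer cells of a type and less RNA per cell cannot be told apart. In donors the summed level of 10 microglia markers was 2400 to 3380 CPM, beside 5870 to 14700 CPM in acceptors and 6230 to 6930 CPM in the control, and 8 of the 10 were called lower and 1 higher in donors than in acceptors over the 6 times. Summed astrocyte markers stood at 15 to 29.4, 13 to 40.6 and 6.17 to 21.8 CPM in control, acceptors and donors, with Aqp4 at 0 in every control and donor library and 5 of 6 tested markers lower in donors than in acceptors. Oligodendrocyte lineage markers summed to 227 to 237, 182 to 361 and 152 to 326 CPM (5 of 10 lower, 1 higher) and neuron markers to 3.75 to 19.3, 2.43 to 25.3 and 1.06 to 12.2 CPM (3 of 6 lower). The 2 measured markers of other leukocytes summed to at most 5.63 CPM in acceptors and 14.4 to 93.6 CPM in donors, and fibroblast and vascular markers to at most 6.43 and 13.6 to 24.4 CPM. The part of these shifts in the results below was not tested. The library of acceptors at 300 min replicate 2, which had the fewest reads, was the lowest acceptor library for 12 members and the highest for 11, or 62.2% of the 37 against 61.8% of all genes tested, so it stood apart across the table.

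Upstream sequence is shown for 6 members to set the letters that SREBP and its partner factors are known to read beside the levels. Of the 38 members, 30 had a promoter window of 250 bases before the start in RefSeq (GRCm38.p6). The sterol regulatory element, searched as TCACNCNAC on both strands, stood upstream of 2 of the 30, Hmgcs1 and Nsdhl, against 2.65% of 27025 genes. Under the narrower letters TCACNCCAC it stood upstream of Hmgcs1 alone, against 1.22% of genes. Sites with other letters were not searched, so a member without a match cannot be said to lack a sterol element. The CCAAT box, CCAAT on either strand and the letters bound by NF-Y, stood upstream of 21 of the 30 and of 14 of the 15 sterol synthesis genes with a window, against 37.5% of all genes. The GC box, GGGCGG on either strand and the letters bound by Sp1, stood upstream of 23 of the 30 and again of 14 of the 15 sterol synthesis genes, against 35.4%. The DR4 element of LXR was found in 0 of the 39 windows of these 30 members and in 0.0148% of all genes. The letters searched for DR4 matched only 4 of 27025 genes, so a count of 0 among 30 members cannot show that LXR elements are absent. A match describes the letters only. Nsdhl was the 1 called member with a match to the searched sterol letters, by the wider letters only, and was chosen by rule. The other 5 were chosen after their values were seen. They were the other member with a match (Hmgcs1), 3 members with CCAAT boxes in different branches (Fasn, Cyp51, Insig2) and 1 with none (Scap). The stretches below end at the base before the RefSeq start and run 5′ to 3′ on the gene's strand, with capitals for a sterol element (Hmgcs1 and Nsdhl) or a CCAAT box on either strand. They lie at chr13:119690201-119690350 (Hmgcs1, plus strand), chrX:72918301-72918520 (Nsdhl, plus), chr11:120824548-120824667 (Fasn, minus), chr5:4104698-4104817 (Cyp51, minus), chr1:121332590-121332739 (Insig2, minus) and chr9:110333168-110333287 (Scap, plus). In GENCODE M21 the Cyp51 gene reaches to base 4104746, so the last part of its stretch, with the CCAAT box, lies inside that gene model. Insig2 has further windows, and its CCAAT boxes stand only in the window shown.
Hmgcs1: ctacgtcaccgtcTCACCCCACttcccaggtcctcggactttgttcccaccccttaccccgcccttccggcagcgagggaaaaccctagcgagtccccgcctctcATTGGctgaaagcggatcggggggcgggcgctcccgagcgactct
Nsdhl: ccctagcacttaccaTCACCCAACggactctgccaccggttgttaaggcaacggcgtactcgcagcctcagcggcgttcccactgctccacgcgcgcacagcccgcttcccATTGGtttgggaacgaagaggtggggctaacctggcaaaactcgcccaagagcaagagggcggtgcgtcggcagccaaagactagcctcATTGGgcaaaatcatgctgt
Fasn: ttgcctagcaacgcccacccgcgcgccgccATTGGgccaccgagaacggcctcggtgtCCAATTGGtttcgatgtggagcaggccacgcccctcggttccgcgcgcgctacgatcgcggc
Cyp51: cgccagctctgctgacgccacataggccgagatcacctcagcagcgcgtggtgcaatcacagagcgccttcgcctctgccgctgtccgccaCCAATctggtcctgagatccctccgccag
Insig2: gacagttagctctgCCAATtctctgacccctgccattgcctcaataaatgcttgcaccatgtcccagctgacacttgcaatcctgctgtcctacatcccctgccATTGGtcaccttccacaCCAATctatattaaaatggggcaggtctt
Scap: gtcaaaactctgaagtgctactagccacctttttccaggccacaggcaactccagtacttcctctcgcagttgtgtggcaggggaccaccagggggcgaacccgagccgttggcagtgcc

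The first comparison asks how cells given alpha-synuclein differed from the control before any co-culture. Donors had lower RNA for the fatty acid enzymes Fasn, Acaca, Fads1, Fads2 and Scd1, for 6 sterol synthesis enzymes and for Scap, and higher RNA for Insig2 and Soat1, at 3 libraries a group. In all 12 of 37 members were lower and 2 higher, beside 9.34% of all genes tested that were lower and 10.3% that were higher. Leaving out control replicate 2 gave 8 calls in place of 14, and leaving out donor replicate 2 gave 9, with the shares of all genes in these fits not given. Pmvk, Mvd, Sqle, Cyp51, Dhcr7, Scd1 and Fads2 each lost the call without at least 1 library. Lower members made up 5 of 8 in fatty acid synthesis (median log2 difference −1.67), 6 of 17 in sterol synthesis (−0.78), 1 of 7 among the regulators (0.21) and 0 of 5 in efflux and handling (0.45), beside a median of −0.03 over all genes tested. Scaling by total counts moved the median of all genes to −0.39 and gave 19 lower and 2 higher members, beside 20.1% and 5.67% of all genes. Lower members were then 11 of 17 in sterol synthesis, 6 of 8 in fatty acid synthesis, 1 of 7 among the regulators (median −0.19) and 1 of 5 in efflux and handling. It added calls of lower RNA for Hmgcs1, Mvk, Fdft1, Hsd17b7, Ebp, Acly and Stard4, which were not called with TMM scaling. The plot of fitted differences shows each member by branch.

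The second comparison sets donors against acceptors at the 6 times. The same branches stood lower in donors, and Insig1, Insig2, Nr1h2, Abcg1 and Soat1 stood higher. With the 6 differences averaged over 18 donor and 18 acceptor libraries, 20 of 37 members were lower and 5 higher, beside 33.0% and 29.5% of all genes tested. Sterol synthesis had 11 of 17 lower and 0 higher (median log2 difference −0.56) and fatty acid synthesis 7 of 8 lower and 0 higher (−1.54). The regulators had 3 of 7 higher and 1 lower (0.36), and efflux and handling 2 of 5 higher and 1 lower (0.37), beside a median of −0.08 over all genes tested. With TMM scaling, the share of higher members was thus below that of all genes in both synthesis branches and above it in the other 2 branches, which hold few genes. Scaling by total counts moved the median of all genes to −0.42 and gave 30 lower and 3 higher members, beside 49.9% and 17.3% of all genes. It added calls of lower RNA for Acat2, Hmgcs1, Lss, Tm7sf2, Msmo1, Sc5d, Scd2, Srebf1, Srebf2 and Abca1, which are described as not called below, and ended those of Insig1 and Nr1h2. The regulators then had 1 of 7 higher and 3 lower (median 0.02), so their higher share was no longer above that of all genes. Efflux and handling then had 2 of 5 higher and 2 lower (0.03).

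**Figure D1:**
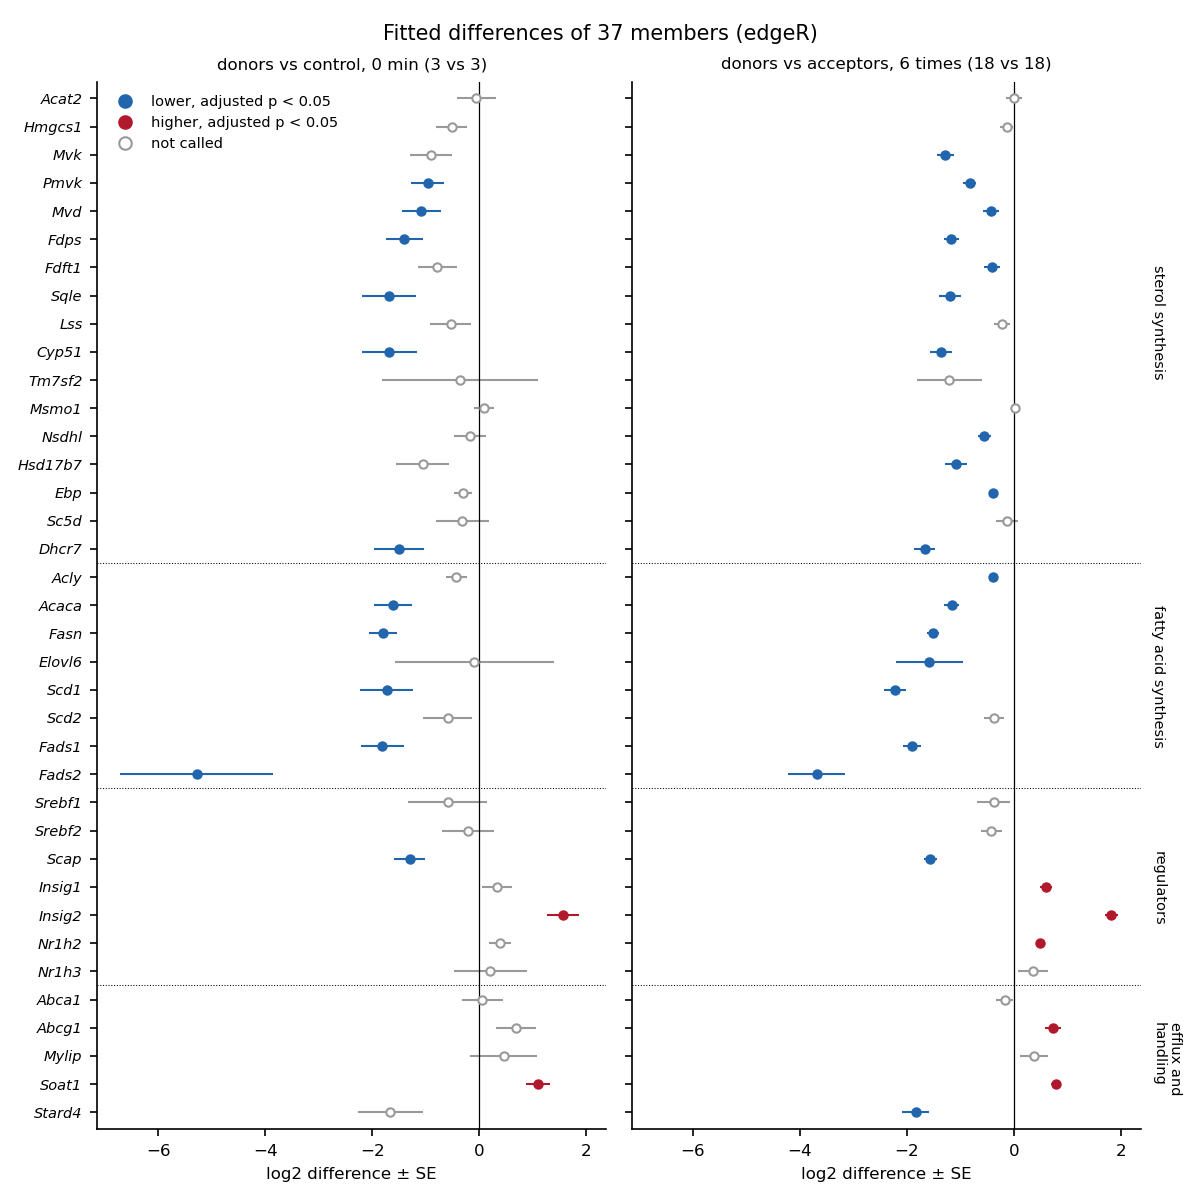
Fitted log2 differences with SE for the 37 members tested, by branch, in donors against control at 0 min (left, 3 against 3 libraries) and donors against acceptors averaged over 6 times (right, 18 against 18), with filled points for called members. Points of both synthesis branches lie at or left of 0, apart from Msmo1 at 0.09 and 0.01 (the latter −0.33 with total-count scaling), while Insig2 lies at 1.56 and 1.82.

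At single times, 12, 8, 14, 10, 7 and 12 members were lower in donors at 0, 15, 30, 60, 150 and 300 min, and 2, 2, 2, 3, 2 and 3 were higher. Over all genes tested, 10.7%, 10.2%, 10.8%, 9.69%, 10.2% and 11.6% were lower at those times and 12.1%, 11.7%, 11.9%, 12.5%, 11.8% and 11.4% were higher. The lower share of members exceeded that of all genes at each time, and the higher share did not. Scaling by total counts gave 19, 16, 19, 18, 13 and 15 lower and 1, 2, 1, 1, 1 and 1 higher, beside 17.4% to 22.6% of all genes lower and 6.34% to 7.73% higher. Fasn, Scd1, Fads1 and Scap were called lower at all 6 times, and Insig2 and Soat1 higher at all 6. Soat1 kept the call at 1 of the 6 times with total-count scaling and at 0 when the gene Rn45s was also left out. It kept the call at 5, without 300 min, with RLE scaling, no filter, DESeq2 or limma voom. When only the 2 groups of a time were fitted, Scd1 was not called at 15 and 300 min, Insig2 at 300 min and Soat1 at 60 and 300 min, and 6.49% of all genes were called at 300 min in place of 23.0%. The sign of the difference was below 0 at all 6 times for 21 members and above 0 at all 6 for 5. These comparisons with acceptors at 0 min and with the control share the same 3 donor libraries, so their values are given side by side and not as separate support.

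**Figure D2:**
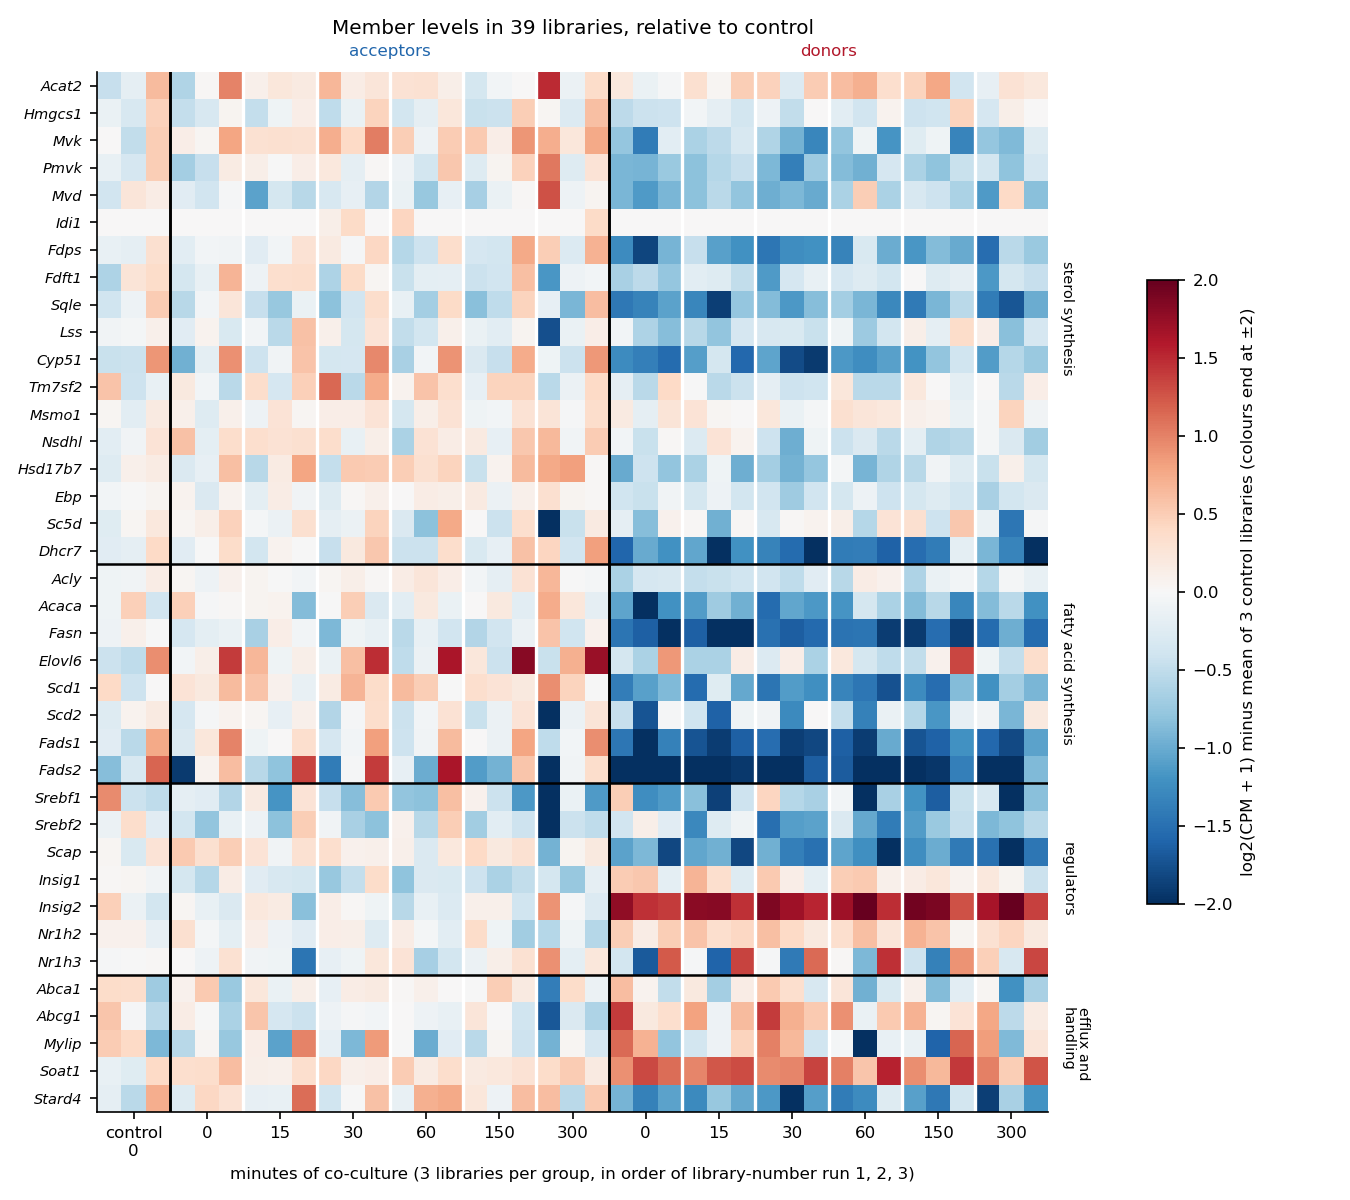
Level of each member in each of the 39 libraries as log2(CPM + 1) minus the mean of the 3 control libraries, with members in rows by branch, libraries in columns by population and minutes of co-culture, and colours that end at ±2. Fasn, Acaca, Scd1, Fads1 and Fads2 are blue through the donor columns, Acly, Scd2 and Elovl6 are mixed there, and the rows of Insig2 and Soat1 are red, and the acceptor columns change little with time.

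In the sterol branch, Dhcr7, the reductase that makes cholesterol from its last precursor, had the smallest adjusted p against acceptors over the 6 times. Its level was 8.51, 8.84 and 13.7 CPM in the control, and 2.70, 4.55 and 3.81 CPM in donors at 0 min. Over the 6 times it ran from 7.12 through a median of 10.0 to 18.7 CPM in acceptors and from 1.11 through 3.26 to 8.72 CPM in donors. Donor values at 0 min lay below the control values. Over the 6 times only the highest donor library, at 150 min, reached into the acceptor range, and it also lay above the lowest control value. The log2 difference was −1.50 ± 0.47 (SE) against control (edgeR adjusted p = 0.0205) and −1.67 ± 0.19 against acceptors (adjusted p = 3.67e-09).

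Fdps, which makes farnesyl diphosphate for sterols and for protein prenylation, had 20.3, 20.8 and 29.3 CPM in the control and 5.77, 9.09 and 11.7 CPM in donors at 0 min, with no overlap. It ranged from 15.2 to 39.9 CPM (median 22.2) in acceptors and from 5.77 to 18.6 CPM (median 10.1) in donors. The log2 differences were −1.40 ± 0.34 (edgeR adjusted p = 0.00335) against control and −1.17 ± 0.14 (7.25e-09) against acceptors. Fdps exons overlap an unnamed gene model on the same strand in GENCODE M21, so its count is uncertain. Mvk, the kinase of mevalonate, stood at 4.78, 7.20 and 10.5 CPM in the control and at 2.11, 3.76 and 6.04 CPM in donors at 0 min. The Mvk groups overlapped and the difference from control was not called (−0.91 ± 0.40, edgeR adjusted p = 0.108), whereas against acceptors Mvk was lower by −1.28 ± 0.16 (3.07e-08).

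Cyp51, the lanosterol demethylase, had 11.5, 11.6 and 30.7 CPM in the control and 4.89, 5.66 and 6.18 CPM in donors at 0 min. Its acceptor levels ran from 7.75 to 32.2 CPM (median 14.5), and its donor levels from 3.53 to 12.4 CPM (median 6.77). The log2 difference was −1.68 ± 0.51 (edgeR adjusted p = 0.0176) against control, a call lost with limma voom (0.0649), and −1.37 ± 0.21 (7.38e-07) against acceptors. Pmvk, the next kinase after Mvk, stood at 16.9, 19.4 and 30.9 CPM in the control and 10.9, 11.1 and 12.5 CPM in donors at 0 min, with differences of −0.96 ± 0.30 (edgeR adjusted p = 0.0219) and, against acceptors, −0.83 ± 0.12 (5.68e-07). Sqle, the squalene epoxidase, stood at 4.52, 5.77 and 9.31 CPM in the control and 1.71, 1.89 and 2.48 CPM in donors at 0 min, with differences of −1.69 ± 0.51 (edgeR adjusted p = 0.0162) and −1.20 ± 0.21 (5.55e-06). The control and donor libraries did not overlap in any of these 3 genes. Exons of Cyp51 overlap Akap9 on the other strand, and no source used here says whether counting used strand.

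The other sterol enzymes called lower over the 6 times were Mvd, Fdft1, Nsdhl, Hsd17b7 and Ebp, with log2 differences from −0.39 (Ebp) to −1.08 (Hsd17b7), and Mvd was also lower against control (−1.08 ± 0.36, edgeR adjusted p = 0.0313). Fdft1, squalene synthase, shares exon bases with Ctsb on the other strand, and Tm7sf2 with Vps51 on the same strand. Acat2, Hmgcs1, Lss, Tm7sf2, Msmo1 and Sc5d were called in neither comparison. Hmgcs1, which makes HMG-CoA and carries the sterol element shown above, had 21.4 to 47.3 CPM in acceptors and 21 to 42.4 CPM in donors (log2 difference −0.14 ± 0.12, edgeR adjusted p = 0.331). Msmo1, which oxidises the methyl groups of lanosterol-derived sterols, had 40.5 to 67.1 and 45.9 to 71.7 CPM (0.01 ± 0.08, edgeR adjusted p = 0.896), a difference that total-count scaling turned to −0.33. Of the 2 genes with a sterol element by the wider letters, Nsdhl was called lower (−0.56 ± 0.12, edgeR adjusted p = 0.000203) and Hmgcs1 was not; their difference was not tested. Summed over the branch, donors had 183 to 266 CPM, acceptors 256 to 412 CPM and the control 266, 273 and 379 CPM.

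In the fatty acid branch, Fasn, which builds palmitate, had 40.3, 43.2 and 46.4 CPM in the control and 8.94, 13.2 and 15.1 CPM in donors at 0 min. Acceptors ranged from 22.6 to 65.0 CPM (median 38.3) and donors from 8.94 to 21.5 CPM (median 13.6). Every donor library lay below every acceptor and control library. Against acceptors the log2 difference was −1.51 ± 0.11 (edgeR adjusted p = 4.63e-14), and at single times it lay between −1.86 at 15 min and −1.29 at 30 min.

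Scd1, which puts the double bond into stearate, was a low-count gene, with 2.35, 3.49 and 4.90 CPM in the control and 0.710, 1.11 and 1.41 CPM in donors at 0 min. It ranged from 3.04 to 7.47 CPM (median 4.52) in acceptors and from 0.328 to 2.76 CPM (median 0.917) in donors. The acceptor and donor ranges did not meet. Differences were −1.73 ± 0.49 (edgeR adjusted p = 0.0112) against control, not called when only those 2 groups were fitted (0.0785), and −2.23 ± 0.21 (2.76e-11) against acceptors. Its neighbour Scd2, the other stearoyl-CoA desaturase, had 22 to 162 CPM in acceptors and 37.5 to 146 CPM in donors and was not called in either comparison (against acceptors −0.37 ± 0.19, edgeR adjusted p = 0.0867).

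Fads1, the delta-5 desaturase of long polyunsaturated fatty acids, had 23.2, 29.0 and 58.5 CPM in the control and 6.88, 11.9 and 12.7 CPM in donors at 0 min. Acceptors ranged from 23.6 to 69.0 CPM (median 33.6) and donors from 6.88 to 16.4 CPM (median 10.3), again without overlap, and the differences were −1.81 ± 0.40 (edgeR adjusted p = 0.00127) and −1.91 ± 0.16 (5.66e-12). Fads2, the delta-6 desaturase encoded beside it, had 39, 151 and 28 reads in the control and 3, 2 and 0 reads in donors at 0 min. The donor total of 5 reads makes the fitted difference of −5.28 ± 1.43 imprecise (edgeR adjusted p = 0.00779, and 0.0834 with limma voom). Over the 6 times Fads2 held 1291 reads in acceptors and 86 in donors, in ranges of 0.131 to 16.6 and 0 to 2.06 CPM that overlapped (−3.69 ± 0.53, edgeR adjusted p = 2.57e-07).

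Acaca, which makes malonyl-CoA, stood at 11.2, 14.0 and 21.1 CPM in the control and 2.44, 5.88 and 6.68 CPM in donors at 0 min, without overlap, and was lower by −1.61 ± 0.35 (edgeR adjusted p = 0.00113) and, against acceptors, by −1.16 ± 0.14 (1.28e-08). Acly, which supplies cytosolic acetyl-CoA, was called lower against acceptors only (−0.39 ± 0.08, edgeR adjusted p = 8.27e-05). Against control its difference was −0.43 ± 0.20 (edgeR adjusted p = 0.120, but 0.000934 with total-count scaling). Whether its 2 differences differ was not tested. Elovl6, an elongase with at most 4.48 CPM in any library, was called against acceptors (−1.58 ± 0.62, 0.0270) and lost the call without any of 5 acceptor libraries in turn. Summed over the 8 genes, donors had 108 to 239 CPM, acceptors 214 to 356 CPM and the control 252, 286 and 340 CPM.

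**Figure D3:**
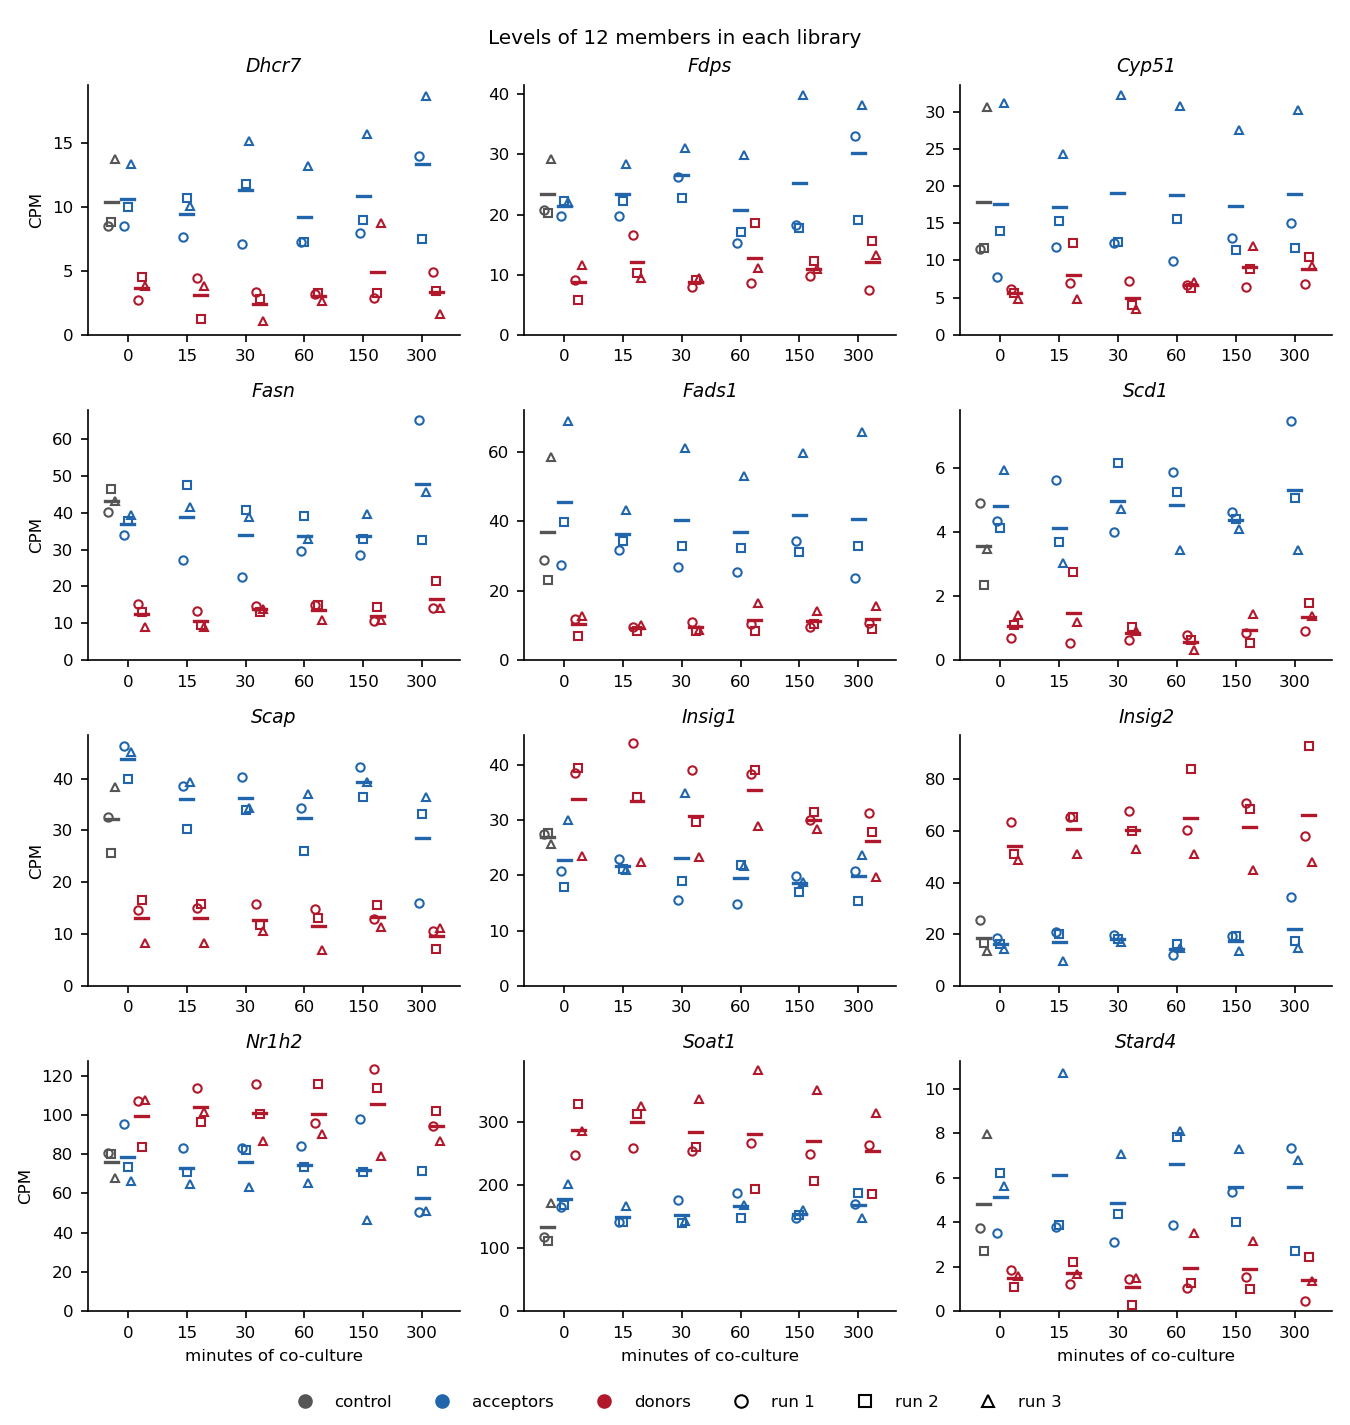
CPM of 12 members in each library against minutes of co-culture, by population (colour) and library-number run (symbol), with bars for group means of 3 libraries. Fasn, Fads1 and Scd1 of donors lie below all acceptor libraries (donor maxima 21.5, 16.4 and 2.76 CPM), Insig2 of donors lies above them (donor minimum 44.9 CPM), and no panel shows a called change with time.

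Among the regulators, Insig1, Insig2 and Nr1h2 were higher and Scap lower in donors than in acceptors, while Srebf1, Srebf2 and Nr1h3 were not called. Insig2 had 13.7, 16.4 and 25.4 CPM in the control and 48.8, 50.9 and 63.4 CPM in donors at 0 min. It ranged from 9.55 to 34.3 CPM (median 17.2) in acceptors and from 44.9 to 92.8 CPM (median 60.1) in donors. No donor library overlapped any other library. The differences were 1.56 ± 0.30 (edgeR adjusted p = 0.000279) and 1.82 ± 0.12 (1.73e-14).

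Scap moved the other way, from 25.6, 32.6 and 38.4 CPM in the control to 8.28, 14.6 and 16.5 CPM in donors at 0 min. Acceptors ranged from 16.0 to 46.3 CPM (median 36.8) and donors from 6.88 to 16.5 CPM (median 12.3). The lowest acceptor value, 16.0 CPM, was that of the library that stood apart, and the 17 others did not overlap with donors. The differences were −1.30 ± 0.29 (edgeR adjusted p = 0.00157) and −1.56 ± 0.12 (4.39e-13).

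Insig1, the other INSIG gene, stood at 25.6, 27.4 and 27.7 CPM in the control and 23.4, 38.5 and 39.5 CPM in donors at 0 min (0.33 ± 0.27, edgeR adjusted p = 0.433). Its ranges of 14.9 to 35.0 CPM in acceptors and 19.8 to 43.9 CPM in donors overlapped, and it was called higher against acceptors (0.59 ± 0.11, edgeR adjusted p = 2.86e-05). Ratios of 2 genes within a library do not depend on how libraries are scaled. In donors the ratio of Insig2 to Scap counts was 3.08 to 13, above all ratios in acceptors (0.243 to 2.15) and in the control (0.356 to 0.779). The ratio of Insig2 to Insig1 ran from 1.29 to 3.33 (median 1.97) in donors. It ran from 0.456 to 1.65 (median 0.897) in acceptors, and the control had 0.533 to 0.925 (median 0.593). The first ratio separated the populations in full and the second did not. Insig2 alone was wholly higher in donors and Scap almost wholly lower, so the separation by the first ratio follows from those levels and is not separate support. How many pairs of all genes separate in this way was not tested. Scaling by total counts ended the call of Insig1 against acceptors (edgeR adjusted p = 0.0736).

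**Figure D4:**
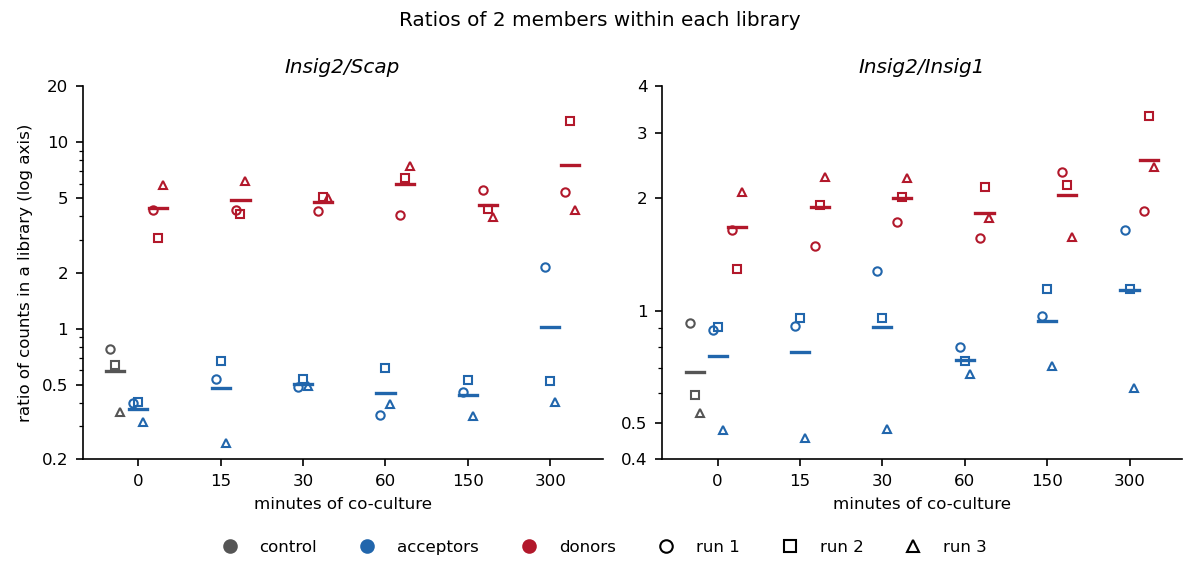
Ratio of Insig2 to Scap counts (left) and of Insig2 to Insig1 counts (right) within each library, on log axes, against minutes of co-culture, by population (colour) and library-number run (symbol), with bars for group means. All donor ratios to Scap are 3.08 or above and all others 2.15 or below, while the ratios to Insig1 overlap between 1.29 and 1.65.

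Srebf1, the gene of SREBP-1 and itself an LXR target, had 10.4, 11 and 30.2 CPM in the control and 5.88, 6.38 and 21.7 CPM in donors at 0 min, with differences of −0.59 ± 0.74 (edgeR adjusted p = 0.626) and, against acceptors, −0.38 ± 0.31 (0.284). Srebf2, the gene of SREBP-2, had 5.51, 5.98 and 8.66 CPM and 4.83, 5.46 and 7.21 CPM (−0.20 ± 0.48, edgeR adjusted p = 0.815; against acceptors −0.42 ± 0.20, 0.0671). Both sets of groups overlapped, and these RNA levels do not measure the cut, active proteins. Exons of Srebf1 overlap Rai1 on the other strand, and those of Scap overlap 5830462I19Rik, also on the other strand.

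Nr1h2, which encodes LXR beta, stood at 67.8, 80.3 and 80.4 CPM in the control and 83.9, 107 and 108 CPM in donors at 0 min. Those groups did not overlap but the difference was not called (0.39 ± 0.21, edgeR adjusted p = 0.212). Over the 6 times it ranged from 46.6 to 98.0 CPM in acceptors and from 79.3 to 124 CPM in donors (0.49 ± 0.09, edgeR adjusted p = 1.01e-05, but 0.125 with total-count scaling). Nr1h3, which encodes LXR alpha, had 14.4, 14.6 and 14.9 CPM in the control and 3.88, 11.1 and 35.6 CPM in donors at 0 min, with no call in either comparison (edgeR adjusted p = 0.873 and 0.271). The donor libraries of Nr1h3 thus spread on both sides of a tight control. Nr1h3 exons overlap the gene model Gm13783 on the same strand, so its count is uncertain, and Nr1h2 has a named pseudogene.

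In efflux and sterol handling, Soat1, which esterifies cholesterol for storage, had 111, 118 and 173 CPM in the control and 248, 287 and 329 CPM in donors at 0 min. It ranged from 141 to 202 CPM (median 163) in acceptors and from 186 to 384 CPM (median 265) in donors, with overlap. The differences were 1.10 ± 0.22 (edgeR adjusted p = 0.000519) and 0.79 ± 0.09 (4.37e-09). Within a library, the ratio of Soat1 to Fasn was 8.66 to 36 in donors, above all ratios in acceptors (2.61 to 7.8) and in the control (2.4 to 4). Fasn alone already separated the populations, so this ratio is not separate support.

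Abcg1, which exports cholesterol to lipoproteins, had 208, 298 and 443 CPM in the control and 346, 383 and 797 CPM in donors at 0 min, which overlapped (0.69 ± 0.37, edgeR adjusted p = 0.2). Against acceptors it was higher (0.72 ± 0.15, edgeR adjusted p = 0.000107), from 92.5 to 442 CPM in acceptors to 209 to 797 CPM in donors. Abca1, the exporter to lipid-poor apolipoproteins, showed no call in either comparison, with 81.1 to 306 and 91.3 to 328 CPM (against acceptors −0.17 ± 0.16, edgeR adjusted p = 0.348). The ratio of Abcg1 to Abca1 was 0.897 to 1.77 in acceptors and 1.55 to 2.68 in donors, ranges that overlapped between 1.55 and 1.77. Mylip, the ligase that degrades lipoprotein receptors, was not called (edgeR adjusted p = 0.662 and 0.209).

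Stard4, a carrier that moves sterol between membranes, had 2.71, 3.75 and 8 CPM in the control and 1.11, 1.57 and 1.85 CPM in donors at 0 min. The groups did not overlap, yet the difference was not called (−1.66 ± 0.61, edgeR adjusted p = 0.0526), whereas DESeq2 called it (0.0313). Over the 6 times it was lower in donors, at 0.264 to 3.52 CPM against an overlapping 2.71 to 10.7 CPM (−1.84 ± 0.25, edgeR adjusted p = 1.21e-07). Its sign was that of the synthesis genes and not that of Soat1 and Abcg1.

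Over the 18 libraries of each population, donors lay wholly below acceptors in 3 of the 37 members (Fasn, Scd1 and Fads1) and wholly above in 1 (Insig2), that is in 8.11% and 2.70% of members beside 3.51% and 5.70% of all genes tested. Without the library that stood apart, Scap joined the first set, for 4 members beside 4.57% of all genes.

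The third question is whether members changed during co-culture, or in acceptors against control at 0 min. No member was called in any of these comparisons. Acceptors at 0 min differed from control in 0 of 37 members (and 0% of all genes in either direction) by edgeR, by DESeq2 and by limma voom, and 0 members had an unadjusted p under 0.05. For acceptors at 15, 30, 60, 150 and 300 min against 0 min, edgeR called 0 members, DESeq2 and limma voom 0, and the members at an unadjusted p under 0.05 numbered 0, 0, 0, 0 and 4. Over all genes tested, 0.00767%, 0.0153% and 0.00767% were higher at 60, 150 and 300 min and 0% in the other cases. For donors at the same times the members called were 0 by each of the 3 tools, those at an unadjusted p under 0.05 numbered 0, 1, 2, 0 and 0, and 0% of all genes was called. F tests for any change over the 6 times called 0 members in acceptors, 0 in donors and 0 for a difference between the time courses, with 1, 0 and 0 at an unadjusted p under 0.05, beside 0.0153%, 0% and 0.0153% of all genes. Group means of Fasn lay between 33.7 ± 5.68 (SD, n = 3) and 47.8 ± 16.2 CPM in acceptors and between 10.7 ± 2.27 and 16.7 ± 4.16 CPM in donors. Those of Insig2 lay between 14.2 ± 2.14 and 22.2 ± 10.6 CPM in acceptors and between 54.4 ± 7.88 and 66.2 ± 23.6 CPM in donors. A fit with a term for the run of library numbers inside each population, described below and added after the data were seen, also called 0 members. Members at an unadjusted edgeR p under 0.05 then numbered 0, 0, 0, 0 and 6 in acceptors and 0, 1, 3, 1 and 4 in donors. At single times that fit called at most 0.146% of all genes in acceptors and 0.0460% in donors. With groups of 3 and a biological coefficient of variation of 0.383 (0.292 with the run term), small changes were not detectable.

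Members also differed between runs of library numbers. The numbers in the titles fall into 3 runs of 13, each with 1 library of every group, and no label says what a run stands for. A fit with a run term inside each population, added after the levels had been seen, called a difference between runs in 11 of 37 members in acceptors and 11 in donors, beside 19.5% and 16.7% of all genes tested. In acceptors 6 of the 11 were sterol synthesis genes (Hmgcs1, Fdps, Fdft1, Sqle, Cyp51 and Sc5d), 3 were fatty acid genes (Scd2, Fads1 and Fads2) and 2 regulators (Insig2 and Nr1h2). In donors Sc5d of the sterol branch was called, as were Acly, Scd2, Fads1, Fads2, Srebf1, Insig1, Nr1h3, Abca1, Abcg1 and Soat1. Run differences themselves differed between the populations in 7 of the 37 members, beside 16.3% of all genes. For this difference between populations the share of members was near that of all genes, so it was not particular to the members. Within each population the share of members with a run difference was above that of all genes, and this excess was not tested.

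Cyp51 was the 1 sterol gene among those 7. In runs 1, 2 and 3 it averaged 11.7, 13.4 and 29.4 CPM in the 6 acceptor libraries of a run and stood at 11.5, 11.6 and 30.7 CPM in the control, and averaged 6.72, 7.94 and 6.91 CPM in donors. The high control and acceptor values thus came from run 3, and no run difference was called in donors (edgeR adjusted p = 2.90e-05 in acceptors and 0.00297 for the difference between populations). Fads1 averaged 28.2, 33.9 and 58.7 CPM in acceptors and 10.6, 8.60 and 13 CPM in donors (edgeR adjusted p = 0.0238 for the difference). Nr1h3 stood at 16.9, 13.1 and 14.5 CPM in acceptors and 14.3, 6.16 and 36.1 CPM in donors (edgeR adjusted p = 3.45e-06), so its donors were above acceptors in run 3 and below them in run 2. Scd2 averaged 101, 50.3 and 124 CPM in donors against 87.0, 120 and 148 CPM in acceptors (edgeR adjusted p = 0.000582).

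Insig1 was higher in donors in runs 1 and 2, at 36.9 against 19.1 and 33.6 against 18.7 CPM, but not in run 3, at 24.4 against 25.0 CPM (edgeR adjusted p = 0.00471 for the difference). Abcg1 averaged 616, 320 and 405 CPM in donors and 302, 278 and 234 CPM in acceptors (edgeR adjusted p = 0.0293). Insig2, in contrast, averaged 64.3, 70.3 and 49.5 CPM in donors against 20.7, 17.9 and 13.9 CPM in acceptors, and Fasn 13.8, 14.5 and 11.3 against 34.4, 38.4 and 39.7 CPM. Within each of the 3 runs, the 6 donor libraries lay wholly below the 6 acceptor libraries for Dhcr7, Fasn, Scd1, Fads1, Scap and Stard4 and wholly above for Insig2, which is 6 and 1 of 37 members beside 5.20% and 7.63% of all genes.

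**Figure D5:**
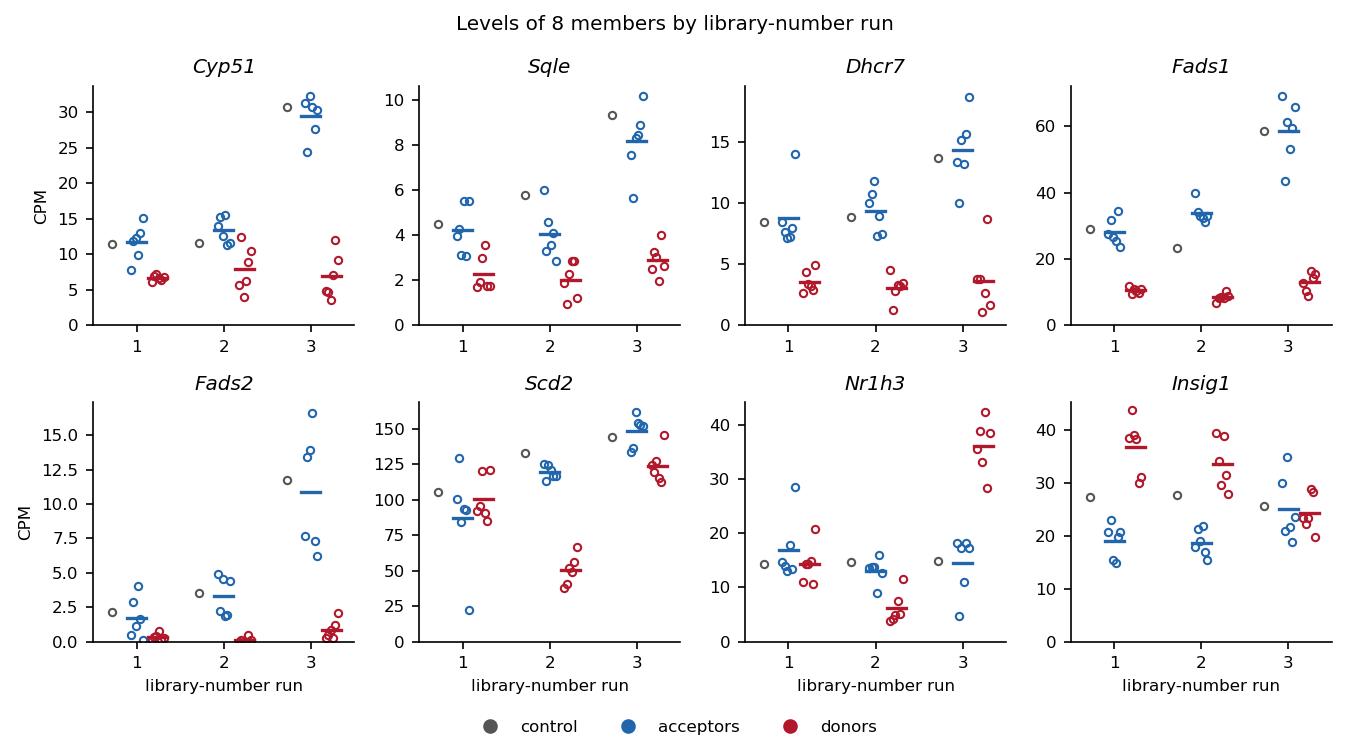
CPM of 8 members by library-number run and population, with 1 point per library and bars for the mean of the 6 donor or 6 acceptor libraries of a run. Cyp51 is raised in run 3 in control (30.7 CPM) and acceptors (mean 29.4 CPM) but not in donors (6.91 CPM), and Nr1h3 of donors is high in run 3 (36.1 CPM), where acceptors average 14.5 CPM.

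Other genes of the same pathways, which are no members, were counted from lists in donors against acceptors over the 6 times. Their counts are read beside the 29.5% of all genes that were higher and the 33.0% that were lower. Of 9 other sterol synthesis genes 4 (44.4%) were higher and 3 (33.3%) lower, among them Por, the reductase that feeds electrons to CYP51 and squalene epoxidase (1.48 ± 0.06), Cyb5r3 (0.49 ± 0.07) and Lbr, a sterol reductase of the nuclear envelope (−1.82 ± 0.14). Of 21 other genes of fatty acid supply, synthesis and elongation 2 (9.52%) were higher and 13 (61.9%) lower, with Acsl5, an acyl-CoA synthetase, at 0.96 ± 0.08, Tecr, the last enzyme of the elongation cycle, at −1.14 ± 0.10 and Agpat2, of glycerolipid synthesis, at −0.93 ± 0.10. Of 9 genes of SREBP processing and turnover 5 (55.6%) were higher and 3 (33.3%) lower, with Rnf145, a ligase that marks SCAP with ubiquitin, at 1.27 ± 0.12, Tmem41b at 0.46 ± 0.07 and Fbxw7, which targets nuclear SREBP for degradation, at 0.80 ± 0.15.

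Of 15 other LXR partners and targets 1 (6.67%) was higher and 10 (66.7%) lower, with Rxra, the partner receptor, at 1.07 ± 0.12, Lpl, lipoprotein lipase, at −2.47 ± 0.09 and Cd5l at −4.07 ± 0.20. Of 17 genes of sterol uptake, lysosomal release and oxysterols 6 (35.3%) were higher and 5 (29.4%) lower, near the shares of all genes, with Cyp27a1, which makes 27-hydroxycholesterol, at −3.79 ± 0.27, Gramd1a, a carrier of plasma membrane sterol, at 1.59 ± 0.12 and Osbp, a sterol exchanger at the Golgi, at 1.25 ± 0.14. In this LXR list the 1 higher gene was thus the partner Rxra, while the lower ones included Lpl, Cd5l, Apoc2, Arl4c and Apoe (−0.67 ± 0.19). Abca7 and Pltp of the list were not called. Among the members named as LXR targets, Abcg1 was higher, with a difference that varied between runs, and Abca1 and Srebf1 were not called. Called LXR targets were therefore mostly lower in donors, with Abcg1 as an exception. In donors against control at 0 min the counts higher and lower were 2 and 1, 1 and 5, 2 and 0, 1 and 3, and 3 and 3 for the 5 lists in this order, beside 10.3% and 9.34% of all genes.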

How the data were processed

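Primary microglia were measured in 39 libraries made with a QuantSeq 3′ kit, per the labels' protocols. Of the 2 tables the authors deposited, the raw read counts by gene symbol were used and the DESeq2-normalized signal, named so per the file headers, was not. STAR, Partek, DESeq2 and mm10 are named in the submitters' processing notes, with no roles or versions, and no source used here says how shared reads or strand were treated. Tags come from 3′ ends, so counts were not corrected for length.

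Counts were fitted in R 4.3.3 with edgeR 4.0.16 (TMM scaling, default filter by group, 1 mean for each of 13 groups, quasi-likelihood test, Benjamini-Hochberg adjustment over 13034 genes, threshold 0.05), and tested on simulated data. DESeq2 1.42.0, limma 3.58.1 voom, other scalings, no filter, fits to the compared groups, a block for the run of library numbers and leaving out each library were alternatives. Each SE was derived from the log2 value and the F statistic. Libraries of 1 run and different groups deviated together, with every correlation above 0.1, in acceptors against control at 0 min (0.155 to 0.455), in acceptors at each time against 0 min (0.102 to 0.447), in donors at 15, 30, 60 and 300 min against 0 min (0.124 to 0.306) and in donors against acceptors at 15 min (0.125 to 0.166), but not in the other comparisons. No label says that replicates are separate cultures or mice, so p-values measure the spread between libraries. An exact permutation test of 3 against 3 cannot go below 0.1.

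Members and lists were chosen with earlier results of these data known. Members are given in full where called, at most 5 a branch with the smallest adjusted p, plus Srebf1, Srebf2, Nr1h2, Nr1h3, Insig1 and Insig2; up to 3 genes are named from each other list. Gene positions and overlaps came from GENCODE M21 (GRCm38) and upstream sequences from RefSeq GRCm38.p6.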

Additional observations from a re-analysis of the deposited data

Results flagged for a closer look

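In 7 of 37 members, beside 16.3% of all genes tested, the difference between donors and acceptors itself differed between the 3 runs of library numbers. The share of members was near that of all genes, so this was not particular to the members. The test was the interaction test of the run-term fit that was added after the levels had been seen. The edgeR adjusted p was 3.45e-06 for Nr1h3, 0.000582 for Scd2, 0.00297 for Cyp51, 0.00471 for Insig1, 0.0159 for Abca1, 0.0238 for Fads1 and 0.0293 for Abcg1. The log2 ratio of the donor to the acceptor mean in runs 1, 2 and 3 was −0.23, −1.09 and 1.32 for Nr1h3. It was 0.21, −1.25 and −0.26 for Scd2, 0.42, −0.71 and −0.26 for Abca1, and 0.95, 0.84 and −0.04 for Insig1. For Cyp51 it was −0.80, −0.75 and −2.09, for Fads1 −1.42, −1.98 and −2.17, and for Abcg1 1.03, 0.20 and 0.79. The sign thus changed between runs for Nr1h3, Scd2, Abca1 and Insig1 and did not for the other 3. What distinguishes the runs was not tested.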

How the results depend on the processing

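The 37 differences over 6 times kept their direction and their side of the threshold with RLE scaling, DESeq2, limma voom, no filter and the fit to the compared groups. Total-count scaling, without and with Rn45s left out, moved the median of all genes over 6 times from −0.08 to −0.42 and −0.45, and members to 3 higher and 30 lower. Msmo1 turned from 0.01 to −0.331 and −0.36, and Insig1 (edgeR adjusted p = 0.0736 and 0.102) and Nr1h2 (0.125 and 0.188) lost their calls. At 15 min total-count scaling gave 18 and 19 members in place of 10, beside 28.5% and 29.8% of all genes in place of 21.9%. At 150 min it gave 14 and 14 in place of 9, beside 27.6% and 28.1% of all genes in place of 22.1%. In donors against control it gave 19 and 19 lower members in place of 12, beside 20.1% and 20.6% of all genes in place of 9.34%. At 300 min the fit to the compared groups called 3 in place of 15, and 6.49% of all genes in place of 23.0%.

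With the run as a replicate block, 150 min gave 14 members, over 6 times 27 and donors against control 15, beside 25.8%, 63.8% and 24.0% of all genes (22.1%, 62.6% and 19.7% without it). It added calls for Scd2 (edgeR adjusted p = 0.0226) and Tm7sf2 (0.0309) over 6 times and for Stard4 against control (0.0328). With the block inside each population, added after the data were seen, 15 min gave 18, 150 min 15 and over 6 times 27, beside 29.9%, 30.0% and 65.6% of all genes, and 0 members changed with time. Overlap judged within runs counted 7 members in place of 4.

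Leaving out 1 library gave 8 to 14 members in donors against control (8 without control replicate 2, 9 without donor replicate 2). Against acceptors it gave 8 to 13 at 0 min (8 without acceptor replicate 2 or donor replicate 3), 7 to 9 at 15 min, 11 to 16 at 30 min, 7 to 11 at 60 min (7 without acceptor replicate 2, 8 without donor replicate 1), 6 to 9 at 150 min, 10 to 18 at 300 min and 24 to 28 over 6 times. It gave 0 to 0 in acceptors against control and in each test of time, and 5 members without overlap in place of 4. The shares of all genes called with 1 library left out are not given, so these counts do not show a change particular to the members.

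Genes near the floor of 3 counts, such as Idi1, Tm7sf2, Elovl6 and Fads2 in donors, limit what depth can show; counts without molecular identifiers cover counting error only.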
